A study of Mus musculus with 2 samples.

Results

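The immediate early response genes are here the 34 genes of one set, chosen by name out of the 31053 genes of the files, and all 34 were found. Genes of this kind can be transcribed within minutes of a stimulus, but whether each member responds that fast was not examined. They were followed in lung endothelial cells of wild-type C57BL/6 mice aged 8 to 12 weeks. Mice of the control group received PBS into the tail vein, and mice of the metastatic group received 200000 B16-F10 cells, a mouse skin melanoma line, by the same route. Lungs were taken 6 h later, digested with collagenase for 1 h at 37 °C, and sorted for the endothelial surface protein Pecam1. Each group was 1 droplet-based single-cell RNA library from 2 mice, so there were no replicates, no test between groups was possible, and every difference is one between these 2 libraries. Tumour cells were labelled with a green dye before injection.

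Immediate early genes need no new protein synthesis to be switched on: MAP kinase, calcium and cAMP signals act on SRF, its Elk partners and CREB, which already sit at their promoters. Many of the products are transcription factors, such as the Fos and Jun proteins that pair to form AP-1, and others, such as the Dusp phosphatases, shut the same signals down. In endothelium these genes respond to flow, growth factors and cytokines, and in any tissue they are also known to respond to enzymatic digestion. Both libraries went through the same digestion, so its part in the levels cannot be told apart from that of the lung itself.

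RNA molecules were counted by unique molecular identifiers (UMIs). A barcode was taken as a cell when it held between 1000 and 5000 genes and less than 20% of its UMIs were mitochondrial, which gave 7134 control and 6466 metastatic cells, of which 16 barcodes occurred in both. General capillary (gCap) cells numbered 5020 and 4519, aerocytes (aCap, the large capillary cells of gas exchange) 1364 and 1086, artery cells 63 and 59, and vein cells 247 and 304. Each class needed 2 detected markers of its own. The median cell held 5950.5 and 6275 UMIs in gCap, and 7911 and 8139.5 in aerocytes. Of the 5 endothelial markers listed, Pecam1, Cdh5 and Cldn5 were detected in 93.1% to 99.4% of the cells of every class. Kdr and Erg were the others, and the lowest of the 5 stood at 58.8 to 89.7 UMIs per 1000000 UMIs of a class. Levels are UMIs per 1000000 UMIs of the class (CPM), and 95% intervals, exact Poisson for a level and exact conditional binomial for a ratio, cover counting error only.

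Promoters of the members were compared first, because several of the signals that start them end at the same short DNA motifs. RefSeq windows on GRCm38.p6, taken as the 250 bases before each transcript start, matched 26 of the 34 members. Fosl1, Egr1, Egr3, Ier2, Klf10, Myc, Cebpd and Sik1 had no window and were not searched. Egr2, Maff and Csrnp1 had several windows, and so more room for a match. The letters TGACG, read on both strands and the core of the site bound by CREB and ATF proteins, occurred in 16 of these 26 members (61.5%) and in 19.8% of 27025 genes. Its full palindrome TGACGTCA, which contains TGACG, was found in 3 members, Dusp1, Btg2 and Maff (11.5% against 1.77%). A CArG box, the SRF site, was found in Egr2 and Dusp5 (7.69% against 1.62%), and the AP-1 site TGACTCA in Csrnp1 (3.85% against 5.16%). A match describes letters in a window and is not a bound site.

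These windows belong to members that run through the results below: Fos and Junb as abundant members with nearly the same level in both libraries, Dusp5 as a member called higher in the metastatic library, and Atf3 and Nr4a1 as members with ratios just short of the threshold. They are Fos at chr12:85473640-85473889 on the plus strand, Junb at chr8:84978749-84978998 on the minus strand, Atf3 at chr1:191183334-191183583 on the minus strand, Nr4a1 at chr15:101266596-101266845 on the plus strand and Dusp5 at chr19:53528895-53529144 on the plus strand. Each is written 5′ to 3′ on the gene's own strand, with TGACG or its reverse complement CGTCA and CArG boxes in capitals.
Fos: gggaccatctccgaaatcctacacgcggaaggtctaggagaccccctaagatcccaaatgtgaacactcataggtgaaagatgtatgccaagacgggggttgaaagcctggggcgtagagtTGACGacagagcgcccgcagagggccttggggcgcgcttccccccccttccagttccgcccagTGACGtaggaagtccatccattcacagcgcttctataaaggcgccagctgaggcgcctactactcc
Junb: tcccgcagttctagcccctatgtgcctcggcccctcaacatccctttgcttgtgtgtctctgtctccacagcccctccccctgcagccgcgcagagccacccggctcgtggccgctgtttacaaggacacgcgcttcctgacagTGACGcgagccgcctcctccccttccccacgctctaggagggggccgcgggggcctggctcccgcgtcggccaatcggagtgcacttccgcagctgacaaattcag
Atf3: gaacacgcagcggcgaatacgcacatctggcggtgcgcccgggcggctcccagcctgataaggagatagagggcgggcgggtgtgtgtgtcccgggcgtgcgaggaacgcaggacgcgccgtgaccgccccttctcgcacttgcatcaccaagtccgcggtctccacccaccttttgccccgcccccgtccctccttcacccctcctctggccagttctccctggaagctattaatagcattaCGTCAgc
Nr4a1: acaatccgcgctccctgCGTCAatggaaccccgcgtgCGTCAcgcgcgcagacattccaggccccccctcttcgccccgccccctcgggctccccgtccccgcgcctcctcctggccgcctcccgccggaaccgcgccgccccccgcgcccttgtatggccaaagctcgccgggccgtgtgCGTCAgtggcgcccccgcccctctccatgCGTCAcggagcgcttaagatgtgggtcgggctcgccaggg
Dusp5: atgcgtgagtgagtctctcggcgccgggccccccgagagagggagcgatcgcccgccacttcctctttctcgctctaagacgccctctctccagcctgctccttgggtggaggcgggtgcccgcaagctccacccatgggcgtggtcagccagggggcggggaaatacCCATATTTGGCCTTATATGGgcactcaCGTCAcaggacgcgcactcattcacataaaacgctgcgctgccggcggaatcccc
Counted back from the transcript start, the TGACG matches began at −129 and −66 in Fos, at −106 in Junb and at −7 in Atf3. Nr4a1 had 4, beginning at −233, −213, −69 and −40. Dusp5 carried 2 CArG boxes side by side, from −82 to −73 and from −72 to −63, followed by a TGACG match at −55.

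In gCap cells most immediate early genes stood at a similar level in both libraries, and the exceptions were Fosl1, Myc, Nr4a3 and Dusp5, all higher in the metastatic library. All 34 members reached the 50 UMIs over both libraries that a ratio required. A member was called where the ratio passed 1.5-fold and its interval excluded 1: 4 members were higher and 0 lower, where 4.11% of 12165 genes were called higher and 2.29% lower. The median log2 ratio of the members was 0.09, against 0.02 over all tested genes, 22 of the 34 lay within 0.25 of 0, and the interval lay above 0 for 16 and below 0 for 9. Together the members made up 1.87% of all control gCap UMIs and 1.90% of the metastatic ones.

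**Figure D1:**
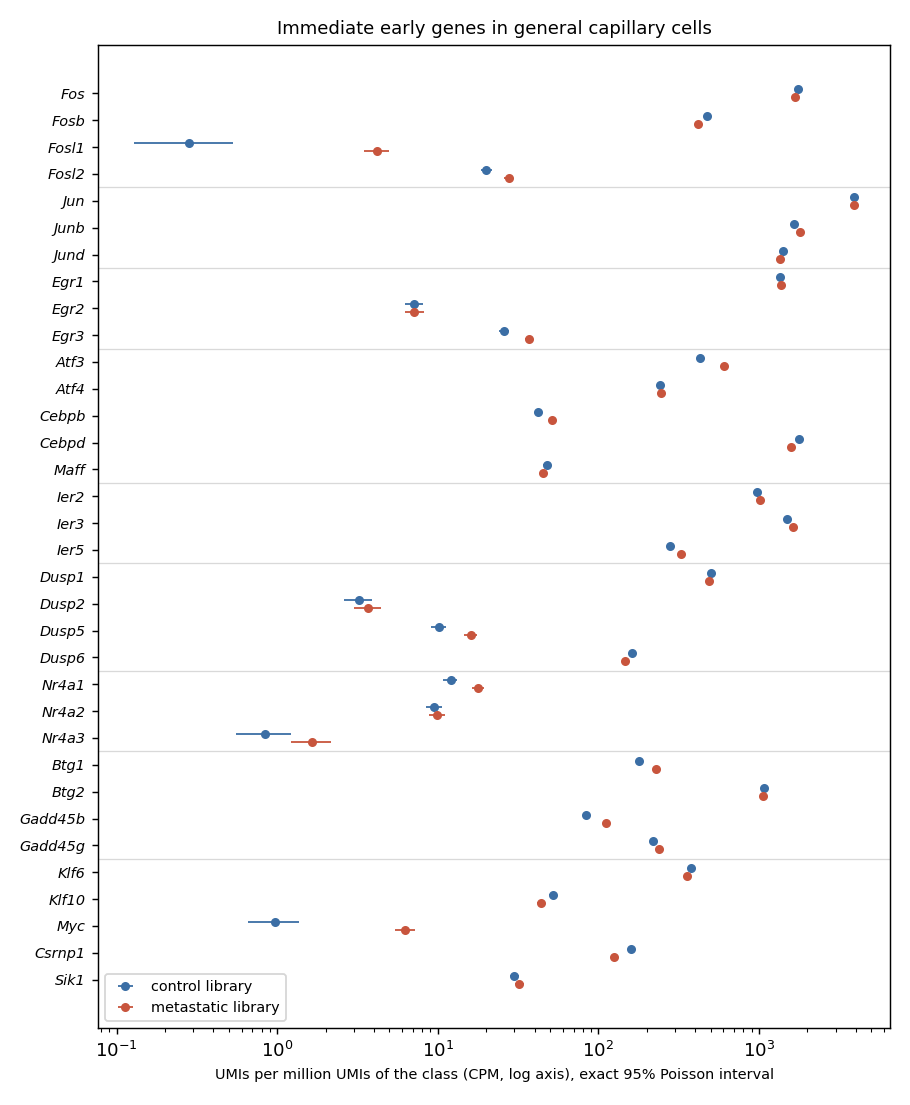
Level of each of the 34 members in gCap cells of the control (blue) and metastatic (red) library, in CPM on a log axis with exact 95% Poisson intervals, grouped by role. The points of most members overlap between libraries, whereas Fosl1 moves from 0.280 to 4.16 CPM and Myc from 0.966 to 6.27 CPM.

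Among the Fos family, whose proteins supply one side of the AP-1 dimer, Fos itself was at 1749 CPM (1735 to 1764) in control and 1687 CPM (1672 to 1701) in metastatic gCap cells. Fosb, its close relative, was at 472 and 417 CPM, a log2 ratio of −0.18 (−0.21 to −0.15). Fosl1 (Fra-1; GRCm38 chr19:5447547-5455946, plus strand) rested on 9 control and 126 metastatic UMIs. That is 0.280 CPM (0.128 to 0.532) against 4.16 CPM (3.47 to 4.95), a log2 ratio of 3.89 (2.92 to 5.05) or 14.8-fold. Fosl2 (Fra-2) was at 20.1 and 27.6 CPM, a log2 ratio of 0.46 (0.31 to 0.61), short of the threshold. The rarest member of the family was thus the one with the largest ratio of the 34, while the abundant ones differed little.

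The Jun proteins are the partners of Fos, and their 3 genes held the largest share of member UMIs. Jun was at 3881 and 3908 CPM, Junb at 1648 and 1789 CPM, and Jund at 1405 and 1351 CPM. No Jun gene differed by more than a log2 ratio of 0.12, the value of Junb (0.10 to 0.14). In the Egr family, zinc-finger factors that act downstream of ERK, Egr1 was at 1360 and 1365 CPM and Egr2 at 7.10 and 7.13 CPM. Egr3 alone stood apart, with 25.8 and 37.0 CPM and a log2 ratio of 0.52 (0.39 to 0.65), which stayed below the threshold.

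Of the other basic leucine zipper factors, Atf3, a stress-induced repressor and activator, had 427 CPM (420 to 434) in control and 609 CPM (600 to 618) in metastatic cells, which gave a log2 ratio of 0.51 (0.48 to 0.54). It was found in 36.3% of control and 42.4% of metastatic gCap cells once every cell was thinned to 2000 UMIs. Atf4, which is mainly controlled at translation, was at 243 and 246 CPM, and the small Maf protein Maff at 47.8 and 45.4 CPM. Cebpb and Cebpd, C/EBP factors of acute inflammation, went in opposite directions and neither passed 1.5-fold. Cebpb was at 42.2 and 51.4 CPM, and Cebpd at 1763 and 1574 CPM.

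The Nr4a orphan nuclear receptors were low in gCap cells. Nr4a3 was the 1 member of the family past the threshold: 27 control and 50 metastatic UMIs, 0.841 (0.554 to 1.22) and 1.65 CPM (1.23 to 2.18), gave a log2 ratio of 0.97 (0.27 to 1.71). Nr4a1 (Nur77) was at 12.0 and 17.8 CPM, a log2 ratio of 0.57 (0.38 to 0.76), the closest of all members below the threshold, and Nr4a2 at 9.47 and 9.90 CPM. In barcodes with 11 to 50 UMIs, which hold mostly free RNA, Nr4a1 was at 79.2 and 61.8 CPM, Dusp2 at 36.6 and 28.8 CPM, Nr4a3 at 105 and 97.45 CPM, Dusp5 at 38.1 and 19.2 CPM and Myc at 15.2 and 15.1 CPM, all above their gCap levels. Free RNA was subtracted at shares of 5.16% in the control and 9.91% in the metastatic library, an upper estimate from T and NK cell markers. Too few Nr4a3 UMIs were then left for a ratio. The log2 ratio was 0.86 for Dusp5, 4.80 for Myc and 6.61 for Fosl1, which had only 9 control UMIs before the subtraction. The part of free RNA in these low gCap values was not tested.

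Dusp phosphatases remove the phosphates that activate MAP kinases. Dusp5, which acts on nuclear ERK, had 326 UMIs in control and 486 in metastatic cells. These were 10.2 CPM (9.08 to 11.3) and 16.04 CPM (14.6 to 17.5), with a log2 ratio of 0.66 (0.45 to 0.87). Its cytoplasmic counterpart Dusp6 was slightly lower in the metastatic library, with 161 and 147 CPM and a log2 ratio of −0.14 (−0.19 to −0.08). Dusp1 was at 500.33 and 488 CPM and Dusp2 at 3.21 and 3.66 CPM. Thus 1 of the 4 phosphatases passed the threshold.

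The Ier genes, short-lived products of growth factor signalling, had all 3 intervals above 0 but none past 1.5-fold. Ier2 was at 974 and 1019 CPM, Ier3 at 1494 and 1629 CPM and Ier5 at 277 and 327 CPM. Among the growth arrest genes Btg1, Btg2, Gadd45b and Gadd45g, the ratio was largest for Gadd45b, with 84.3 and 111 CPM and a log2 ratio of 0.39 (0.32 to 0.47). Btg1, an antiproliferative factor of quiescent cells, followed with 178 and 229 CPM, and Btg2, a p53 target, was at 1072 and 1060 CPM.

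Myc (GRCm38 chr15:61985391-61990374, plus strand), the growth regulator, had the second largest ratio of the 34. It rested on 31 control and 190 metastatic UMIs, or 0.966 CPM (0.656 to 1.37) against 6.27 CPM (5.41 to 7.23), a log2 ratio of 2.70 (2.15 to 3.30) or 6.50-fold. The remaining regulators were level or slightly lower in the metastatic library. Csrnp1, an AXIN1-induced nuclear factor, had the lowest ratio of all members, with 159 and 126 CPM and a log2 ratio of −0.34 (−0.40 to −0.28). Klf10 was at 51.8 and 43.9 CPM, Klf6 at 379 and 358 CPM, and Sik1, a kinase that restrains CREB coactivators, at 29.9 and 32.2 CPM.

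Markers of other cell types also differed between the gCap sums of the libraries. The 4 erythroid markers summed to 1956 control and 822 metastatic CPM, the 4 epithelial ones to 1683 and 990 CPM, the 4 monocyte ones to 327 and 212 CPM, and the 4 platelet ones to 175 and 271 CPM, with 0 of the markers at 0. Their part in the member ratios was not tested. With cells that held 2 or more detected markers of 1 other cell type left out, which left 1399 control and 2225 metastatic gCap cells, and under the other ways of processing that gave a value, the log2 ratio lay between 3.33 and 6.61 for Fosl1, 2.12 and 4.80 for Myc, 0.51 and 0.86 for Dusp5, and 0.60 and 1.01 for Nr4a3. The lowest value of Dusp5, with 3 required gCap markers, did not pass 1.5-fold.

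**Figure D2:**
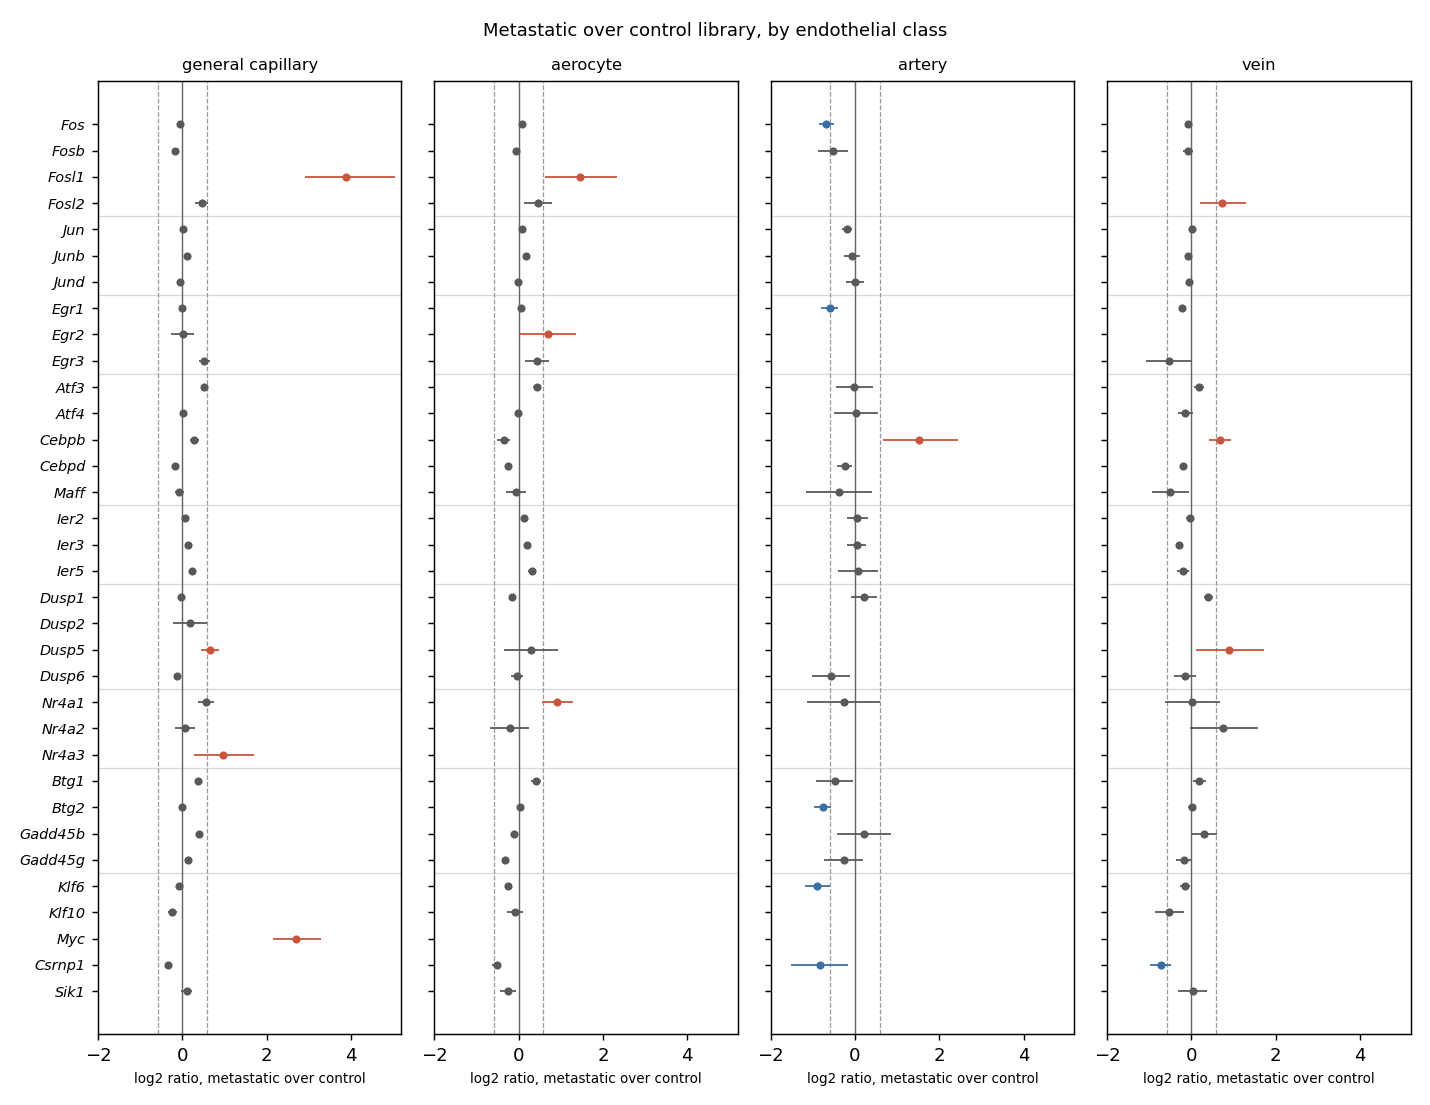
Log2 ratio of CPM, metastatic over control, with exact 95% intervals, for each member with at least 50 UMIs in gCap, aerocyte, artery and vein cells. Dashed lines mark 1.5-fold, red points were called higher and blue points lower in the metastatic library. In gCap cells most members sit near 0 and Fosl1 lies at 3.89, whereas in artery cells 5 members are called lower.

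The Fosl1 and Myc UMIs came from few cells. In the metastatic library 68 gCap cells held the 126 Fosl1 UMIs, with up to 6 in a cell, and 110 cells held the 190 Myc UMIs, with up to 7. In the control library 9 cells held Fosl1 and 25 held Myc. At 2000 UMIs a cell, Fosl1 was found in 0.0809% of control and 0.650% of metastatic gCap cells and Myc in 0.121% and 0.986%. Lymphoid marker cells of the metastatic library, with a median of 4675 UMIs against 6275 in gCap, held Fosl1 in 0 of 53, and monocyte or macrophage marker cells in 2 of 32 (6.25%), against 1 of 33 (3.03%) in the control library. Barcodes with 11 to 50 UMIs held 3 Fosl1 UMIs in the control library, or 4.57 CPM, which is above its control gCap level, and 0 in the metastatic one. The 2 genes shared cells: 29 metastatic gCap cells held both, so that 42.6% of the Fosl1 cells also held Myc, against 2.43% of all gCap cells.

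Many of these cells also contained RNA of Inhbb, which encodes the activin beta B subunit. An Inhbb UMI was present in 63.2% of the metastatic Fosl1 cells and 52.7% of the Myc cells, against 7.48% of all metastatic gCap cells. In the control library it was present in 1 of the 9 Fosl1 cells and 28% of the 25 Myc cells, against 2.31% of all gCap cells. The metastatic Fosl1 and Myc cells were also deeper, with medians of 7454 and 7746 UMIs against 6275 in all metastatic gCap cells. The melanoma markers Pmel, Dct, Tyrp1 and Mlana, a list written after the data were seen, summed to 1 UMI in all Fosl1 cells and to 6 UMIs, held by 2 cells, in all Myc cells, of 70 such UMIs over all metastatic gCap cells. Inhbb was therefore used to split the gCap cells of each library, a split chosen after these values were seen and reported as a description. It gave 116 control cells with and 4904 without an Inhbb UMI, and 338 and 4181 metastatic ones, and the cells with Inhbb were deeper (median 6767.5 against 5935 UMIs in the control and 7244 against 6193 in the metastatic library).

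In the metastatic library 11 of the 34 members were past 1.5-fold higher in the cells with Inhbb and 0 lower, where 7.09% of 11208 genes were called higher and 7.4% lower. The 11 were Fosl1, Myc, Dusp2, Nr4a3, Sik1, Fosl2, Maff, Gadd45b, Gadd45g, Cebpb and Dusp5. Fosl1 and Myc are no separate result here, because Inhbb was chosen for its presence in their cells. Fosl1 was at 33.2 CPM (26.8 to 40.8) in cells with Inhbb and 1.24 CPM in cells without, and Myc at 37.9 CPM (31.0 to 45.9) and 3.09 CPM. Fosl2 was at 61.8 and 24.1 CPM, Maff at 92.8 and 40.6 CPM, and Sik1 at 74.1 and 28.0 CPM. None of the most abundant members passed 1.5-fold, and several were lower in the cells with Inhbb: Fos was at 1421 and 1713 CPM, Jun at 3249 and 3974 CPM, and Btg2 at 931 and 1073 CPM. With Fosl1 and Myc set aside, the cells with Inhbb were thus past 1.5-fold higher in Fosl2, Maff, Sik1 and the Gadd45 genes, among others. Fos, Jun and Egr1 did not pass the threshold.

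In the control library 31 members had at least 50 UMIs over the cells with and without Inhbb together. Of these 0 were higher and 2 lower, Dusp5 and Gadd45b, where 3.58% of 11220 genes were called higher and 2.71% lower. Dusp5 rested on only 3 UMIs in the cells with Inhbb, against 323 in those without, a log2 ratio of −1.61 (−3.90 to −0.05). Gadd45b rested on 43 and 2662 UMIs. The median log2 ratio over the members was −0.29 in the control and 0.30 in the metastatic library, against −0.01 and −0.06 over all tested genes. Myc, below 50 UMIs there, was at 11.3 CPM (5.40 to 20.7) in control cells with Inhbb and 0.673 CPM in those without. Fosl1 was at 1.13 CPM, from 1 UMI, and 0.256 CPM. Whether the libraries differed in this respect was not tested.

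**Figure D3:**
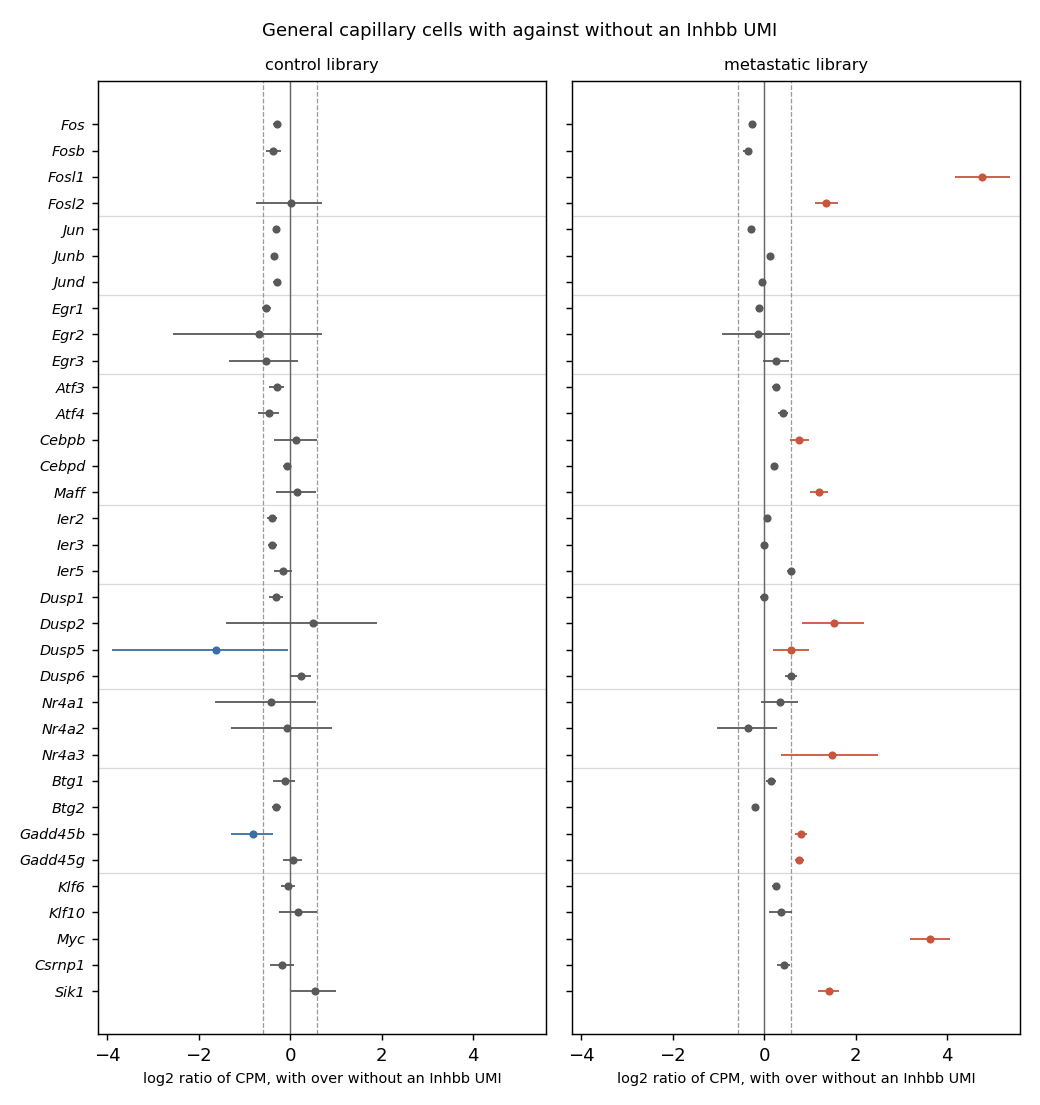
Log2 ratio of CPM between gCap cells with and without an Inhbb UMI, with exact 95% intervals, in the control (left) and metastatic (right) library, for members with at least 50 UMIs. Dashed lines mark 1.5-fold and coloured points passed it. In the metastatic library 11 members lie past the right line, and in the control library none does. Fosl1, at 4.75, and Myc, at 3.62, led to the choice of Inhbb for the split.

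Epithelial markers were higher in the cells with Inhbb of both libraries, at 5166 against 1584 CPM in the control and 3010 against 787 CPM in the metastatic library, and monocyte markers were at 440 against 189 CPM in the latter. With all cells left out that held 2 or more detected markers of another cell type, an alternative added after the values were seen, the log2 ratio between metastatic cells with and without Inhbb was 4.45 for Fosl1, 3.92 for Myc, 1.29 for Fosl2, 1.19 for Maff and 1.33 for Sik1. For Cebpb it was 1.13, against 0.76 with all cells. On these 175 metastatic cells with and 2050 without Inhbb, 8 of 32 members, Fosl1 and Myc included, were higher and 0 lower. Of 9966 genes, 6.18% were called higher and 5.93% lower. Dusp2 and Nr4a3 were left with fewer than 50 UMIs, and Dusp5, at 0.62 (−0.01 to 1.20), was no longer called. In the control library, with 35 and 1364 cells, 1 of 30 members was higher, Dusp6, and 1 lower, Gadd45b, where 3.25% of 9115 genes were called higher and 2.84% lower.

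In aerocytes 3 of 31 testable members were higher in the metastatic library and 0 lower, where 3.48% of 10464 genes were called higher and 1.59% lower. Fosl1 had 18 and 41 UMIs, or 1.59 and 4.37 CPM, a log2 ratio of 1.46 (0.63 to 2.35). Nr4a1 was at 9.01 and 16.9 CPM, a log2 ratio of 0.91 (0.54 to 1.28), and Egr2 at 3.09 and 5.01 CPM, a log2 ratio of 0.70 (0.03 to 1.37), which was −0.079 when 3 aerocyte markers were required. Myc had 3 control and 19 metastatic UMIs, too few for a call. The median log2 ratio of the members was 0.04, and epithelial markers summed to 630 and 90.9 CPM, whose part was not tested.

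Artery cells gave the largest number of members lower in the metastatic library, on 63 and 59 cells. Of 23 testable members 1 was higher and 5 were lower, where 4.8% of 3539 genes were called higher and 3.48% lower, and the median log2 ratio was −0.25. Fos was at 1430 and 892 CPM, a log2 ratio of −0.68 (−0.86 to −0.51), Egr1 at 967 and 637 CPM, Btg2 at 1077 and 635 CPM, Klf6 at 554 and 298 CPM, and Csrnp1 at 114 and 63.7 CPM. These lower values depended on which cells were taken as artery. When 3 markers were required, 12 and 7 cells remained, 2 members were lower, and the log2 ratio was 0.46 for Fos and 0.03 for Klf6.

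In vein cells 3 of 29 testable members were higher and 1 was lower in the metastatic library, where 4.59% of 8241 genes were called higher and 2.17% lower, and the median log2 ratio was −0.08. Fosl2 was at 19.5 and 32.5 CPM, a log2 ratio of 0.74 (0.20 to 1.30), and Dusp5 at 9.07 and 16.8 CPM, a log2 ratio of 0.89 (0.10 to 1.73). Csrnp1 was at 138 and 83.7 CPM, a log2 ratio of −0.72 (−0.98 to −0.47). Csrnp1 was thus below its control level in each of the 4 classes, with log2 ratios of −0.34 in gCap, −0.52 in aerocytes, −0.83 in artery and −0.72 in vein cells.

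Cebpb was the member called higher in both artery and vein cells. It was at 32.4 and 92.5 CPM in artery cells, on 16 and 45 UMIs, and at 83.9 and 134 CPM in vein cells, log2 ratios of 1.51 (0.66 to 2.43) and 0.68 (0.42 to 0.94). The summed monocyte or macrophage markers, Lyz2, Csf1r, Cd68 and Ccr2, were also higher in the metastatic library, but mostly through 1 of the 4 genes. They summed to 24.3 CPM in control and 273 CPM in metastatic artery cells, with 2 of the 4 at 0 in each. In vein cells they summed to 30.8 and 611 CPM, with 1 of the 4 at 0 in each. The highest of these genes alone was at 265 CPM in metastatic artery and 592 CPM in metastatic vein cells, so the sums stand for that gene and not for the list. Cells carrying monocyte markers had Cebpb at 1372 and 1242 CPM. In vein cells epithelial markers also differed (123 and 3641 CPM), and the log2 ratio of Cebpb was 0.19 once cells with markers of other types were left out and −0.39 when 3 vein markers were required. The part of RNA from other cell types in these Cebpb ratios was not tested.

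The members were also compared between classes within each library. The question asked of this comparison was whether aerocytes, artery and vein cells carry the same immediate early transcripts as gCap cells, their neighbours in the same digest. The members summed to 1.38% and 1.42% of aerocyte UMIs, 1.27% and 1.05% of artery UMIs and 2.06% and 1.95% of vein UMIs in the control and metastatic library, against 1.87% and 1.90% in gCap cells. A member was counted here only where it passed 1.5-fold the same way in both libraries. All of these ratios share the gCap cells as their base.

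Aerocytes had less of most members: 13 of 31 were lower than in gCap and 1 was higher, where 9.48% of 11390 genes were called lower and 7.28% higher in both libraries. The median log2 ratio to gCap was −0.55 in the control and −0.42 in the metastatic library, against 0.01 and 0.02 over all tested genes, and 22 members were below 0 in both. The 13 were Fosl2, Junb, Egr1, Egr3, Atf3, Ier3, Dusp2, Dusp5, Dusp6, Btg1, Btg2, Maff and Cebpd. Dusp5 was furthest below, by log2 ratios of −1.42 and −1.78, but on only 43 and 44 aerocyte UMIs. Dusp2 rested on 20 and 15 aerocyte UMIs, and both entered through their gCap UMIs. Cebpd was at −0.97 and −1.06. Egr1, at −0.83 and −0.77, had 763 CPM in control and 798 CPM in metastatic aerocytes. Gadd45b, which links stress to p38 and JNK, was the exception, at 257 and 239 CPM in aerocytes against 84.3 and 111 CPM in gCap.

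Artery cells were lower than gCap in 9 of 31 members and higher in 1, where 3.12% of 11072 genes were called lower and 2.89% higher, with median log2 ratios of −0.50 and −0.75. The 31 included members with almost no artery UMIs, such as Dusp2 with 0 and 0 and Dusp5 with 0 and 5. The 9 were Jun, Junb, Jund, Atf3, Atf4, Ier2, Ier3, Ier5 and Cebpd, so that all 3 Jun and all 3 Ier genes were among them. Nr4a1 was the 1 higher, at 56.8 and 47.3 CPM in artery cells, log2 ratios of 2.24 (1.63 to 2.80) and 1.41 (0.74 to 2.01). Its level rested on 28 and 23 artery UMIs, and in the barcodes with few UMIs it was at 79.2 and 61.8 CPM.

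Few members differed between vein and gCap cells. Of 31 members 2 were higher, Cebpb at log2 ratios of 0.99 and 1.38 and Sik1 at 0.93 and 0.86, and 1 was lower, Dusp6 at −0.65 and −0.66, where 5.05% of 11173 genes were called higher and 4.48% lower. The medians were 0.06 and 0.07. Sik1 was at 57.1 and 58.3 CPM in vein cells against 29.9 and 32.2 CPM in gCap.

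**Figure D4:**
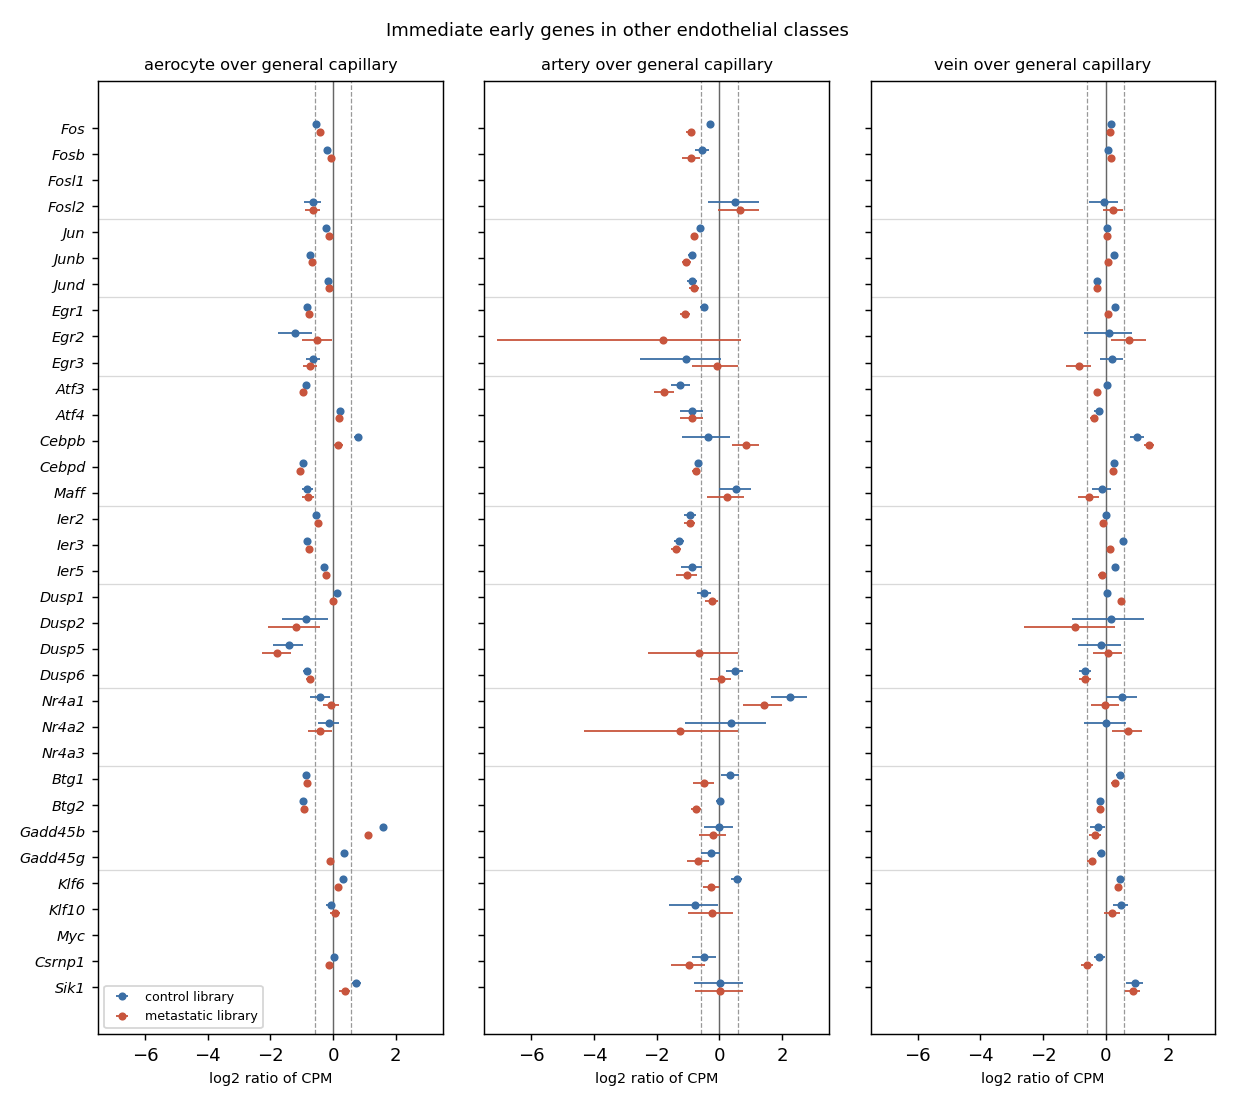
Log2 ratio of CPM in aerocyte, artery and vein cells over gCap cells, within the control (blue) and metastatic (red) library, with exact 95% intervals. Members shown had at least 50 UMIs over the class and gCap cells together in each library, and a UMI in each class. Dashed lines mark 1.5-fold. Most aerocyte points lie left of 0 in both libraries with Gadd45b at 1.61 and 1.11 on the right, and the artery points have wide intervals.

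The summed signal varied widely between single cells of 1 class and much less between libraries. At 2000 UMIs a cell, the median gCap cell held 35 member UMIs in the control and 34 in the metastatic library, the 10th percentile was 9 in both, and the 90th percentile was 71 and 73. The highest cell held 136 and 177. The median aerocyte held 18 in both libraries, while its 90th percentile was 58 and 57, so that the typical aerocyte was low and the highest ones exceeded the median gCap cell. Vein cells had a median of 33 and 31 and artery cells of 11 and 13.

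Members differed in how uneven they were over cells. For counts scattered by sampling alone the variance equals the mean. Fos had a variance over mean of 4.74 and 5.42, where other genes of like mean had a median of 1.41 and 1.42. Egr1 was at 4.04 and 4.27, and Atf3 at 3.07 and 3.85. Maff was close to sampling alone, at 1.02 and 1.05. Of the members abundant enough to compare, 23 of 24 in the control and 25 of 25 in the metastatic library were above the median of genes of like mean.

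Several of the abundant members were high in the same gCap cells. Across 4947 control and 4461 metastatic cells at equal depth, Pearson's r between a member and the sum of the others was 0.76 and 0.76 for Junb, 0.72 and 0.71 for Egr1, 0.70 and 0.69 for Fos, and 0.64 and 0.66 for Ier2. In both libraries 8 of 24 members reached an r of 0.5: Fos, Jun, Junb, Jund, Egr1, Ier2, Ier3 and Btg2. Dusp6, Klf10, Maff and Sik1 stayed below 0.1 in both. Dusp6, a target of ERK, had an r of 0.04 and 0.07 to the sum, on a mean of only 0.32 and 0.28 UMIs per thinned cell. The highest pair was Junb with Egr1 (0.68 and 0.65), and the median over pairs was 0.092 over 276 pairs in the control and 0.116 over 300 pairs in the metastatic library. Cells of 1 library share its handling and base composition, so these values are descriptions, and weak ones in sparse counts are no finding.

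**Figure D5:**
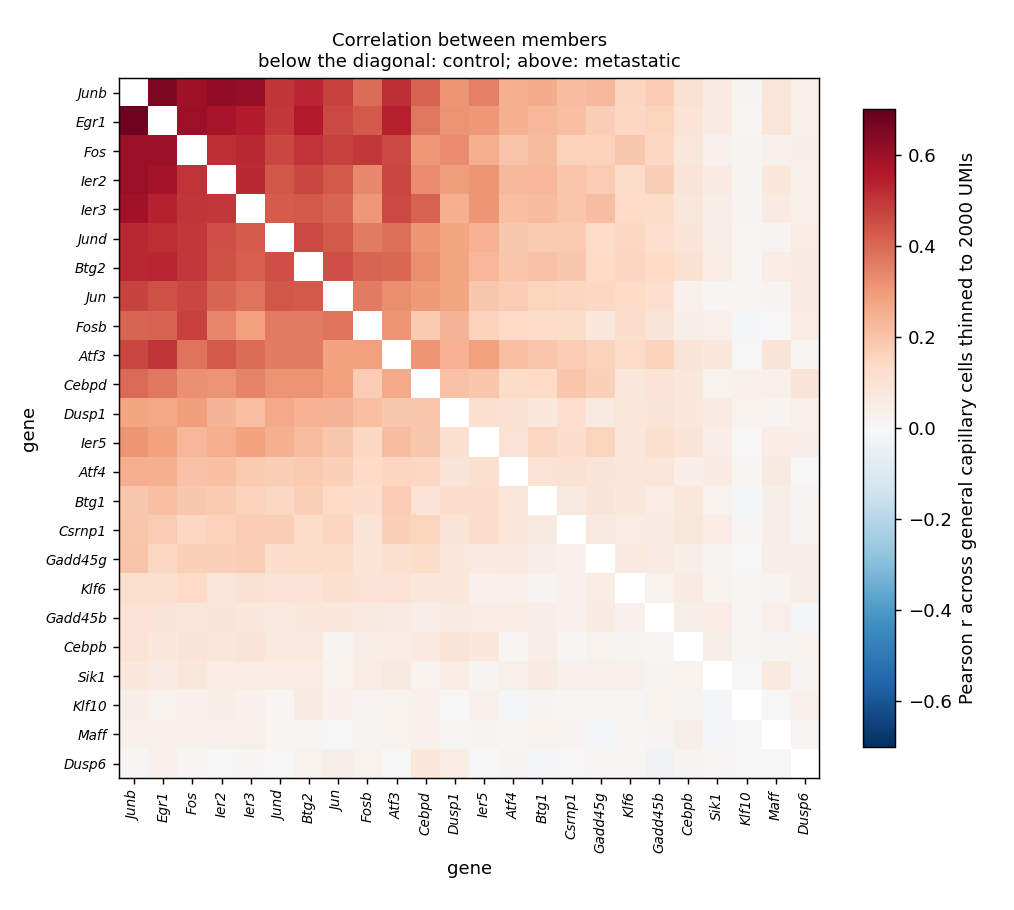
Pearson's r between members across gCap cells thinned to 2000 UMIs, control below and metastatic above the diagonal, with members ordered by their r to the sum of the others in the control library. The red block in the upper left corner is Junb, Egr1, Fos and the other members with an r of 0.5 or more, and Dusp6 and Maff at the end are near 0.

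Outside the set, the genes whose counts followed the members most closely in gCap cells were Socs3 (r of 0.62 and 0.57), the feedback inhibitor of cytokine receptors, and Zfp36 (0.54 and 0.53), which destabilizes AU-rich mRNAs. Klf4, a flow-responsive factor of endothelium, was at 0.40 and 0.39. Ppp1r15a, Sbno2, Sertad1, H3f3b, Gm26532 and Cdkn1a were also among the 10 highest of 5455 genes. The median gene was at −0.00 in both libraries and the 99th percentile at 0.150 in both. Mitochondrially encoded transcripts were at the other end, with mt-Atp6 at −0.26 and −0.29 and mt-Co3 at −0.28 and −0.26.

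Of 16 MAP kinase, SRF and CREB genes, which lie upstream of the members, 0 were called in either direction in gCap cells, and their median log2 ratio was 0.04. With 4.11% of all tested genes called higher and 2.29% lower, counts this small in lists of this size stand near the background. Among 20 feedback genes and dimer partners, of which 18 could be tested, 0 were higher and 1 was lower. That gene was Jdp2, which encodes a Jun dimerization protein that represses AP-1, at 131 control and 75.8 metastatic CPM, a log2 ratio of −0.79 (−0.87 to −0.72). Of 16 other rapid response genes 14 could be tested, 1 was higher and 0 were lower. Phlda1, a target of ERK signalling, was at 18.3 and 37.2 CPM, a log2 ratio of 1.03 (0.88 to 1.17), and also higher in aerocytes, at 71.3 and 112 CPM.

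The same lists were compared in the other classes, and lists without a call in a class are not mentioned. In aerocytes 2 of 13 testable rapid response genes were higher and 1 was lower, against 3.48% and 1.59% of all tested genes. Besides Phlda1, Cyr61, a matricellular target of YAP, was higher at 31.3 and 48.4 CPM, and its relative Ctgf was lower at 33.9 and 17.4 CPM. In vein cells 2 of 16 testable feedback genes and dimer partners were lower and 0 higher, against 2.17% and 4.59% of all tested genes. They were the ERK pathway inhibitors Spry1, at 86.6 and 44.5 CPM, and Spry2, at 30.4 and 19.1 CPM. In artery cells 2 of 9 testable rapid response genes were lower and 0 higher: Rhob, at 523 and 333 CPM, and Cyr61, at 247 and 132 CPM. Of 9 testable MAP kinase, SRF and CREB genes, 1 was higher there and 0 were lower. Over all tested genes of artery cells, 4.8% were called higher and 3.48% lower.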

How the data were processed

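Single-cell 3′ RNA libraries of Pecam1-sorted lung cells, 1 per group, were used. The deposited matrices hold whole-number UMI counts per gene and barcode, which the authors made with Cell Ranger (version 3.1.0 per the file headers) on mm10; no normalization had been applied. All 6794880 listed barcodes were present, so cells were called here, by 1000 to 5000 genes and under 20% mitochondrial UMIs, and gene locations are those of GENCODE for GRCm38. Total counts were 67929614 in the control and 64733724 in the metastatic library.

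The classes followed detected markers, at least 2 each: Ednrb, Fibin, Tbx2 for aerocytes; Slc6a2, Car8, Bst1 for vein; Gja5, Bmx, Fbln5 for artery; and Gpihbp1, Aplnr, Kit, Lpl with none of these rules met for gCap. Cells meeting several of the first 3 rules (46 and 32) or none (394 and 466) were left out. Doublets were kept, and left out as an alternative (407 and 334 barcodes scored against simulated doublets). UMIs were summed per class and library. Members past 1.5-fold, with a 95% interval excluding 1 and at least 50 UMIs, were named, and all members are accounted for. Outside genes named were those among the 10 with the highest r, and some genes that met these rules are not reported here. The members, lists and comparisons were chosen with earlier results of these data known. The counting rule was tested on simulated Poisson counts of a class, which hold no extra spread between cells, so the test says nothing about that spread. Alternatives were other gene and mitochondrial limits, TMM scaling (edgeR 4.0.16 in R 4.3.3), equal weight per cell, subtraction of free RNA, other class rules, a minimum of 200 UMIs and thinning to 1000 UMIs. Python 3.11.15, numpy 2.4.6, scipy 1.17.1 and matplotlib 3.10.9 were used.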

Additional observations from a re-analysis of the deposited data

Results flagged for a closer look

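For 4 members the metastatic over control ratio had intervals on opposite sides of 0 in 2 classes and differed between them by at least 1.5-fold. The classes furthest apart are given, which were aerocytes and artery cells for all 4. Fos was at a log2 ratio of 0.07 in aerocytes and −0.68 in artery cells, a difference of 0.75. Egr1 was at 0.06 and −0.60, a difference of 0.67, and Btg1 was at 0.41 and −0.48, a difference of 0.89. Cebpb went the other way, at 1.51 in artery cells and −0.35 in aerocytes, a difference of 1.86. The artery values rest on 63 and 59 cells. Over the ways of processing that gave a value, the artery log2 ratio lay between −0.54 and 0.28 for Btg1 and between −0.76 and 0.46 for Fos. It kept its sign for Egr1 and Cebpb. With 1 library per group these differences were not tested.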

How the results depend on the processing

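Over 12 alternatives, 1349 member ratios (metastatic over control, by class) were recomputed. Of these, 1212 stayed within their reported interval, 133 left it, and 4 were called ratios that changed sign. Changes of sign in ratios that were not called are counted by the interval alone. Such ratios included Jun in gCap, between −0.015 and 0.039, and Dusp2 in gCap, between −0.64 and 1.89. The 4 called ratios that changed sign all did so with 3 required class markers: Cebpb in vein cells (−0.39), Egr2 in aerocytes (−0.079), Fos in artery cells (0.46) and Klf6 in artery cells (0.027). The number of members called higher became 1 in aerocytes, 0 in artery and 1 in vein cells with 3 markers, and 2 in gCap, 1 in aerocytes, 0 in artery and 1 in vein cells with at least 200 UMIs. It became 0 in artery and 0 in vein cells with cells holding other types' markers left out, and 0 in artery and 1 in vein cells with equal weight per cell. The number called lower became 2 in artery and 0 in vein cells with 3 markers, 2 in vein cells with other types' markers or with doublets left out, and 2 in artery and 3 in vein cells with equal weight, which also left 0 lower in vein against gCap cells. Between control gCap cells with and without Inhbb, the members called higher became 1 and those lower 1 when cells with other types' markers were left out. Thinning to 1000 UMIs gave median pair correlations of 0.094 and 0.123. The cause of these shifts was not tested. The share of free RNA was estimated at 5.16% and 9.91% from T and NK cell markers and at 0.596% and 1.29% from stromal ones. No paired analysis was possible because each group was 1 library, and no library could be left out for the same reason. Artery ratios rest on few cells, and members under 50 UMIs have no ratio.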

Other observations

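Blood cells that carried lymphoid or monocyte markers passed the same filters and had member levels unlike those of endothelium. In lymphoid marker cells (51 control and 53 metastatic), Btg1 was at 1530 and 1817 CPM and Dusp2, a phosphatase of activated lymphocytes, at 266 and 258 CPM, whereas Jun was at 266 and 313 CPM and Egr1 at 38.5 and 76.3 CPM. In monocyte or macrophage marker cells (33 and 32), Fos was at 2804 and 2280 CPM, Egr1 at 836 and 491 CPM, Nr4a1 at 299 and 176 CPM and Dusp2 at 171 and 40.7 CPM. Few cells stand behind these values.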
